A study of Mus musculus with 2 samples.

Results

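The ErbB receptors and their ligands were followed in mouse mammary gland as 10 genes, matched by symbol: the receptor genes Egfr, Erbb2, Erbb3 and Erbb4, and the ligand genes Areg, Ereg, Btc, Tgfa, Hbegf and Nrg1. All 10 had an entry among the 43346 genes of the deposited tables, with 24 transcripts between them. The tissue was mammary gland of adult C57BL/6J mice, an inbred strain, at 8 weeks of age, and the labels describe each library as pooled from males and females. There were 2 libraries, biological replicates 1 and 2 of 1 group, sequenced from poly(A) RNA with strand information. The labels give them separate samples but the same donor entry, so the spread between them may not be that of independent animals. Reproductive state is not given in the sources used here, and the health state is labelled unknown. Expected fragments over all genes summed to 56323489 in replicate 1 and 42400470 in replicate 2. With 1 group there was no contrast to test, and no p-value is given.

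ErbB receptors are membrane tyrosine kinases that pair when a ligand binds and then feed the Ras to ERK and PI3K to AKT routes. Egfr binds Areg (amphiregulin), Tgfa, Hbegf, Btc and Ereg. Erbb3, whose own kinase is weak, and Erbb4 bind neuregulins such as Nrg1, and Erbb2 binds no known ligand and serves as a partner. In the mammary gland, Areg is induced by oestrogen in luminal cells and is needed for the ducts to grow at puberty. The ligands are made as membrane-anchored precursors and are cut free by proteases such as Adam17.

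The gene-level value of Egfr turned on which of its transcripts the fragments were assigned to, so the places where these transcripts part are shown first. Egfr lies on mm10 chromosome 11, 16752203 to 16918158, plus strand. Egfr-201 is the full-length receptor transcript, with 28 exons and 1210 codons. Egfr-205 is a non-coding transcript of 446 nt with 2 exons: the first is shared with Egfr-201, and the second lies inside intron 1 of Egfr-201, on chromosome 11 from 16793640 to 16793744. The first 2 sequences below are 30 bases at the end of exon 1 followed by 30 bases of the next exon, in capitals; their end bases lie at 16752541 and 16858925 for Egfr-201, and at 16752541 and 16793669 for Egfr-205. The third is the whole second exon of Egfr-205. All were read 5′ to 3′ from the GENCODE M21 transcripts on mm10.
Egfr-201 exon 1 to exon 2: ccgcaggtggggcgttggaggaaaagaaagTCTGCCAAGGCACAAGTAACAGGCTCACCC
Egfr-205 exon 1 to exon 2: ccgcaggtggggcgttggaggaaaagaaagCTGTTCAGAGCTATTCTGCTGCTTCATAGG
Egfr-205 exon 2: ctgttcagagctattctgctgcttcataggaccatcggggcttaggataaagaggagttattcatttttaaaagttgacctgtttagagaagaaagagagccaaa

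Egfr-202 is a shorter coding transcript of Egfr, with 16 exons and 655 codons, of which 641 are shared with Egfr-201. It does not join exon 16 to exon 17, where the segment that spans the membrane follows, but reads on into the intron for 40 coding bases to a stop codon. Its coding sequence therefore holds the part of the receptor outside the cell and no kinase. The next 2 sequences start with the same 30 bases of exon 16, at 16887156 on chromosome 11; capitals mark exon 17 in Egfr-201, which ends here at 16889942, and the stop codon in Egfr-202, which ends at 16887228.
Egfr-201 exon 16 to exon 17: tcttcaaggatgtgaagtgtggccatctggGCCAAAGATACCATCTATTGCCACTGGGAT
Egfr-202 exon 16 read-through: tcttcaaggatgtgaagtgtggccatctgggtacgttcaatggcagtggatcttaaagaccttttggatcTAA

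Levels below are in TPM (a level per length of transcript, scaled to the same total in each library, as deposited by the authors), given for replicate 1 and then replicate 2. A gene at 1 TPM or more was taken as expressed. Of the 10 genes, 6 reached 1 TPM in both replicates, against 58.3% of the 21474 protein-coding genes in the tables: the receptor genes Egfr, Erbb2 and Erbb3 and the ligand genes Areg, Tgfa and Hbegf. Erbb4, Ereg, Btc and Nrg1 were under 1 TPM in both. By mean TPM the order was Areg, Egfr, Erbb2, Erbb3, Tgfa, Hbegf, Btc, Erbb4, Nrg1 and Ereg. The ranges over the replicates overlapped for the neighbours Areg and Egfr, Erbb2 and Erbb3, and Nrg1 and Ereg, and were apart for the others.

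**Figure D1:**
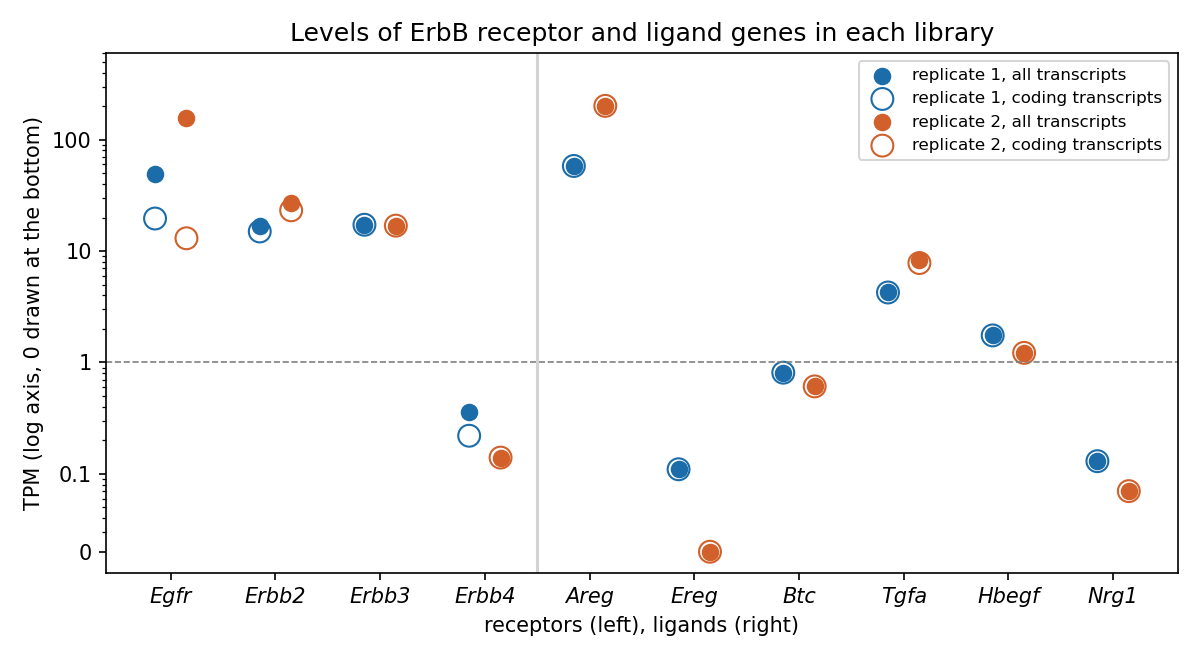
TPM of each ErbB receptor and ligand gene in replicate 1 (blue) and replicate 2 (orange) on a log axis, with a value of 0 drawn at the bottom; filled points are the gene's deposited value, open rings the sum over its transcripts with a coding sequence, and the dashed line is 1 TPM. The rings leave the filled points for Egfr, at 19.6 and 13.03 TPM in place of 49.1 and 156 TPM. Areg is far above the other ligand genes drawn in both libraries.

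Egfr, the receptor for Areg and Tgfa, stood at 49.1 and 156 TPM, a mean of 103 ± 75.9 TPM (SD, n = 2). Its expected fragments went the other way, 6502 in replicate 1 and 3640 in replicate 2. Scaled by the total of each library, the log2 ratio of replicate 2 over replicate 1 was -0.43 by counts (95% Clopper-Pearson interval -0.49 to -0.37, which covers counting error only) and 1.65 by TPM with a pseudocount of 1. The direction of the Egfr difference thus depended on the unit. Between TPM and fragments stands the effective length, the length left for a fragment to start in, weighted over the transcripts of the gene: for Egfr it was 3072 nt in replicate 1 and 757 nt in replicate 2. Of 8994 genes with more than 1 transcript and over 100 fragments in both libraries, 2.38% had an effective length more than 2-fold shorter in replicate 2, and Egfr was number 25 by the size of that fall.

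The transcript tables placed this change in Egfr-205. The non-coding Egfr-205 stood at 24.0 and 138 TPM, or 49.0% and 88.5% of the gene's TPM, on 244 and 988 expected fragments. Full-length Egfr-201 stood at 12.2 and 6.64 TPM, or 24.9% and 4.24% of the TPM, yet it held 81.0% and 56.0% of the fragments of Egfr. The truncated receptor transcript Egfr-202 stood at 7.38 and 6.39 TPM, with 870 and 536 fragments, and the short non-coding Egfr-204, which covers exons further along the gene, at 5.46 and 5.01 TPM. Egfr-203 was listed at 0 in both libraries. The full-length transcript was lower in replicate 2 by counts, with a log2 ratio of -0.96 (-1.03 to -0.89), and Egfr-205 was higher, at 2.43 (2.22 to 2.64). Summed over the transcripts with a coding sequence, Egfr was at 19.6 and 13.03 TPM, a mean of 16.3 ± 4.65 TPM (SD, n = 2), which set it beside Erbb2 and Erbb3 rather than above them. This sum includes the truncated Egfr-202. Full-length Egfr-201 alone was below Erbb2-201, at 15 and 23.2 TPM, and below Erbb3, at 17.2 and 16.9 TPM, in both libraries.

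**Figure D2:**
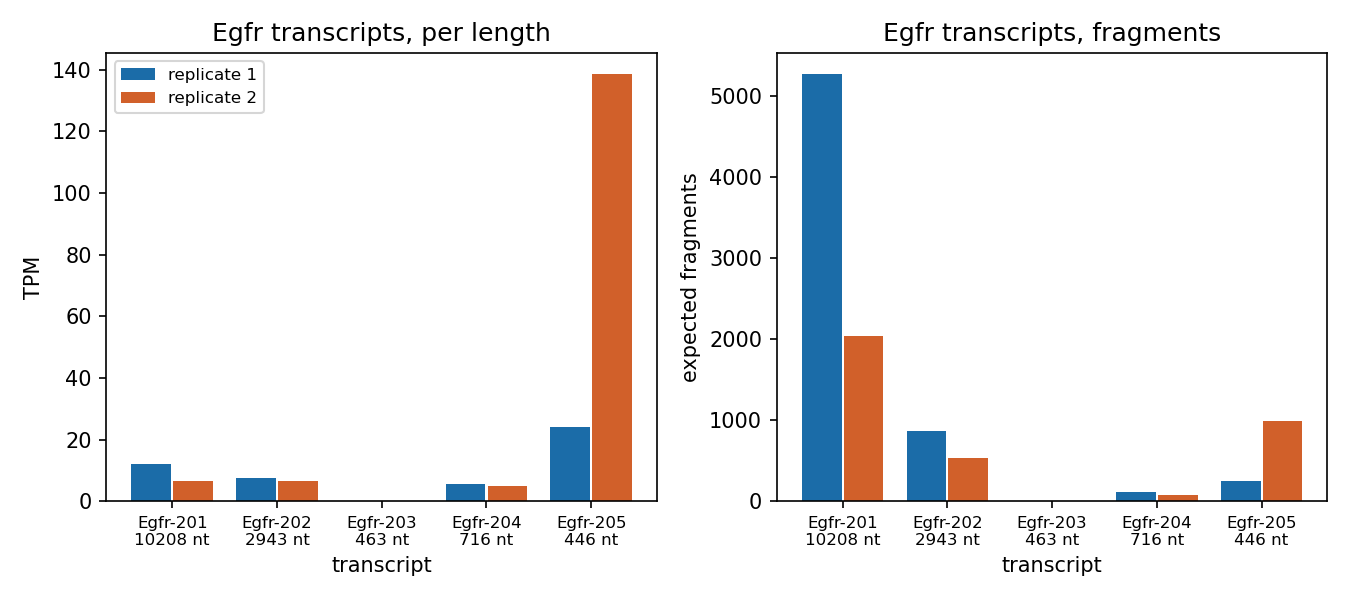
Bars from 0 show the TPM (left) and the expected fragments (right) of the 5 Egfr transcripts in replicate 1 (blue) and replicate 2 (orange), with the length of each transcript under its name. Egfr-205, of 446 nt, takes 138 TPM in replicate 2 from 988 fragments, while the 10208-nt Egfr-201 holds the most fragments in both libraries.

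A table of splice junctions, deposited once for the series on mm9 without a library name, gave a separate view of these transcripts. Introns were matched to it by their lengths and spacing on the same chromosome and strand, and no coordinate was moved between builds. All 27 introns of Egfr-201 were found, with 3474 reads over the gene. The 15 introns of Egfr-202 are all introns of Egfr-201 too, so their reads do not tell it from Egfr-201. The read-through past exon 16, which sets Egfr-202 apart, was not looked up. The junction that defines Egfr-205, across an intron of 41069 nt, was not in the table, although the table lists junctions with as few as 1 read. The only listed junction that leaves the end of exon 1 was that of Egfr-201 and Egfr-202, with 83 reads across 106325 nt. In the deposited table of contigs, stretches of continuous signal, no contig on the strand overlapped the second exon of Egfr-205, located by its distance from exon 1, and the nearest lay 379 nt away. A contig of 1160 nt lay over exon 1 with a signal of 14.8 and ran 639 nt past the end of that exon, while the highest of the 112 contigs inside intron 1 had a signal of 3.27. The unit of this signal is not stated. Egfr-205 thus had expected fragments in both libraries, while its own junction and its own exon had no entry in these series tables, which were made on another build. Exon 1, shared with Egfr-201, makes up 76.5% of its length.

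Exon 1 of Egfr is rich in G and C, at 65.7% in Egfr-205, against 43.6% for the rest of Egfr-201. Over all genes the replicate ratio moved with GC content, as given further on, and the part of GC content in the assignment to Egfr-205 was not tested. Along the receptor, reads per intron in the junction table ran from 12 to 332 over introns 1 to 15, with a median of 83, and from 13 to 309 over introns 16 to 27, which Egfr-202 lacks, with a median of 180.5. Junctions of the part with the kinase were thus listed with reads in every intron. The antisense gene Egfros, which overlaps Egfr on the other strand, was listed at 0 and 0.01 TPM.

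**Figure D3:**
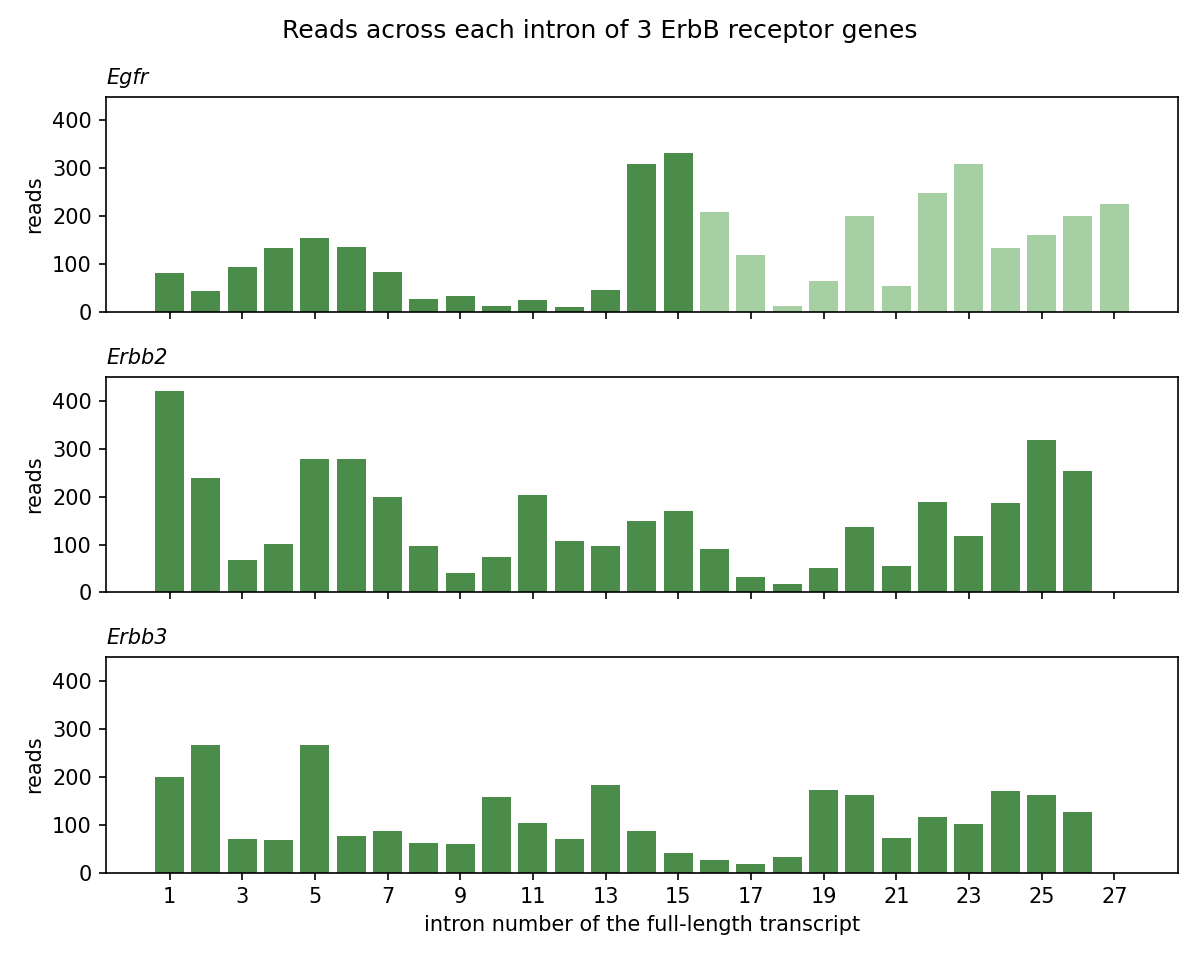
Reads across each intron of the full-length transcripts of Egfr, Erbb2 and Erbb3, from the junction table of the whole series, with introns numbered from the start of the transcript; light bars mark the Egfr introns 16 to 27, which the truncated Egfr-202 lacks. Egfr has reads in all 27 introns, from 12 to 332, and the only empty intron drawn is the last of Erbb3.

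Erbb2, the partner receptor without a ligand of its own (chromosome 11, 98412470 to 98437716, plus strand), stood at 16.7 and 27.1 TPM, a mean of 21.9 ± 7.40 TPM (SD, n = 2). It was higher in replicate 2 by counts, with 3409 and 3812 fragments and a log2 ratio of 0.57 (interval 0.50 to 0.64), short of 2-fold. The full-length Erbb2-201 led in both libraries, at 15 and 23.2 TPM or 90.0% and 85.6% of the gene, and the non-coding Erbb2-202 held 9.98% and 10.9%. All 26 introns of Erbb2-201 were in the junction table, with 3965 reads. At its far end Erbb2 overlaps Mien1, at 50.7 and 44.4 TPM, by a few bases on the other strand. The libraries are stranded per the labels, but whether the counting used strand is not stated in the sources at hand.

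Erbb3, the neuregulin receptor that signals through its partner (chromosome 10, 128567523 to 128589652, minus strand), stood at 17.2 and 16.9 TPM, a mean of 17.1 ± 0.219 TPM (SD, n = 2). Its 4315 and 3018 fragments gave a log2 ratio of -0.11 (-0.17 to -0.04), the closest to 0 among the receptor genes. It has 1 transcript in the tables, and 26 of its 27 introns were in the junction table with 2951 reads.

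Erbb4, the other neuregulin receptor (chromosome 1, 68032186 to 69108059, minus strand), was low, at 0.36 and 0.14 TPM on 102 and 30 fragments. The log2 count ratio was -1.36 with an interval of -1.99 to -0.76. At this depth its transcripts could not be told apart: Erbb4-201 took 44.1% of the gene's TPM in replicate 1 and 0% in replicate 2, Erbb4-202 took 9.50% and 52.4%, Erbb4-203, a retained intron, 38.2% and 0%, and Erbb4-205 8.25% and 47.6%. The fragments of Erbb4-203 and Erbb4-205 numbered 4 or fewer in either library. The authors' posterior mean for Erbb4 was higher, 1.20 and 1.41 TPM, and their interval in replicate 1 ran from 0.267 to 2.75 TPM. The junction table held 15 of the 27 introns of Erbb4-201, with 53 reads over the gene.

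Summed over the receptor genes, TPM came to 83.3 and 201 with all transcripts, and to 52.1 and 53.3 with coding transcripts only. The difference between the libraries in the first sum was thus not seen in the second. Among coding transcripts Egfr, with the truncated Egfr-202 included, took 37.7% and 24.4% of the receptor TPM. Erbb2 took 28.8% and 43.6%, and Erbb3 33.1% and 31.7%, with Erbb4 at 0.423% and 0.263%.

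Areg dominated the 6 ligand genes followed here. Areg (chromosome 5, 91139599 to 91148432, plus strand), the oestrogen-induced ligand of Egfr, stood at 58.1 and 201 TPM, a mean of 129.6 ± 101 TPM (SD, n = 2), and took 89.1% and 95.2% of the TPM of the 6 ligand genes. Its mean lay above that of 92.5% of the 13272 protein-coding genes with a mean of at least 1 TPM. It was higher in replicate 2 by fragments as well, 2476 and 6091, with a log2 ratio of 1.71 (interval 1.64 to 1.78). Areg has 1 transcript in the tables, so no split over transcripts enters its level. All 5 of its introns were in the junction table, with 2480 of its 3244 reads across intron 1.

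Of the 6 genes with a mean of at least 1 TPM, Areg was the only one whose whole interval lay beyond 2-fold. Over all 14510 genes at that level, 18.2% were beyond 2-fold between the replicates in either direction, 8.73% higher in replicate 2 and 9.43% higher in replicate 1. A share of 1 in 6 is near this background, so the count says nothing particular of the ErbB genes. The median log2 count ratio of the 6 genes was -0.12, against -0.06 over all genes. With spike-in totals as the scale, the log2 ratios of Egfr, Erbb3, Tgfa and Hbegf turned positive, at 0.34, 0.66, 0.64 and 0.17, and that of Erbb2, at 1.34, passed 2-fold. Btc, under 1 TPM, turned as well, to 0.28.

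Some luminal markers differed in the direction of Areg. All 12 were above 1 TPM in both libraries and summed to 1097 and 2010 TPM. Of these, 4 were beyond 2-fold higher in replicate 2 (Gata3, Pgr, Foxa1 and Cldn3), against 8.73% of all genes, and 1, Prlr, was beyond 2-fold higher in replicate 1. Their median log2 count ratio was 0.87, and 0.42 after the median at each gene's GC content was taken off. Their part in the level of Areg was not tested. Per 100 TPM of luminal markers, Areg stood at 5.30 and 10.01 TPM. That sum weighs the keratin genes Krt19, Krt8 and Krt18 most, with Krt19 at 385 and 660 TPM. Single markers differed in both directions, with Foxa1 at 25.7 and 81.9 TPM and Elf5 at 40.3 and 21.6 TPM. Esr1, which encodes the oestrogen receptor, was at 22.9 and 29.6 TPM, and Pgr, for the progesterone receptor, at 11.3 and 44.2 TPM. In these bulk libraries, more cells of a type and more RNA per cell cannot be told apart.

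**Figure D4:**
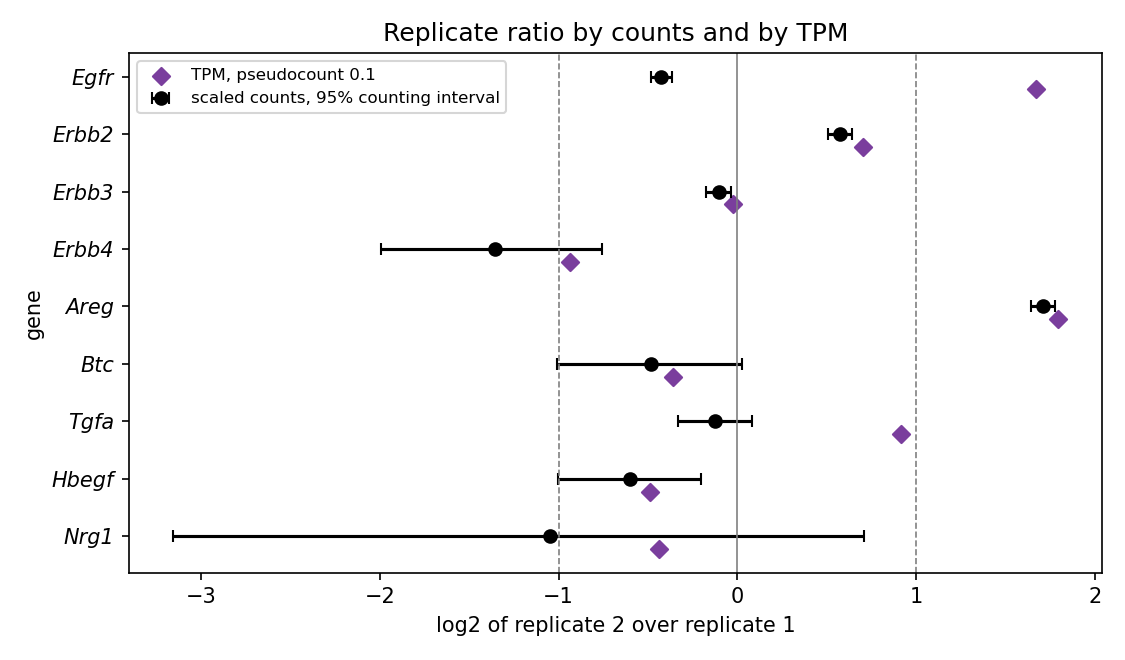
Log2 ratio of replicate 2 over replicate 1 for 9 of the genes, by scaled counts (black, with the 95% counting interval) and by TPM with a pseudocount of 0.1 (purple diamonds); dashed lines mark 2-fold, and Ereg is left out because it has 0 fragments in replicate 2. Areg lies beyond 2-fold by both units, while Egfr and Tgfa have diamonds to the right of 0 and counts to the left of it.

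Tgfa, a ligand of Egfr (chromosome 6, 86195223 to 86275719, plus strand), stood at 4.32 and 8.24 TPM, a mean of 6.28 ± 2.77 TPM (SD, n = 2). As for Egfr, its fragments did not follow, at 469 and 324, a log2 count ratio of -0.12 with an interval of -0.33 to 0.08 that includes 0. Tgfa-201, the full-length transcript, held 95.7% and 81.8% of the fragments and stood at 2.62 and 2.17 TPM. Tgfa-202, a fragment of 410 nt whose coding sequence has no annotated end, stood at 1.63 and 5.64 TPM on only 14 and 34 fragments, or 37.6% and 68.5% of the gene's TPM. It skips from exon 3 to the last exon. Below, the last 30 bases of exon 3 are followed by the next exon in capitals, from 86263247 to 86269959 in Tgfa-201 and from 86263247 to 86271977 in Tgfa-202 on mm10 chromosome 6.
Tgfa-201 exon 3 to next exon: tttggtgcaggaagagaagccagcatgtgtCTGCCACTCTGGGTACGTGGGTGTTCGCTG
Tgfa-202 exon 3 to next exon: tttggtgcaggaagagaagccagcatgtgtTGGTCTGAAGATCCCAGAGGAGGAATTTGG

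All 5 introns of Tgfa-201 were in the junction table, with 15 to 53 reads each. The junction that sets Tgfa-202 apart was not, and the only listed junction leaving exon 3 was that of Tgfa-201, with 33 reads. Exon 1 is GC-rich here too, at 76.3% in Tgfa-202, which as a whole has 63.2%, against 50.9% for Tgfa-201 in GENCODE M21. In both Egfr and Tgfa, then, the transcript with most of the higher TPM in replicate 2 was short, and its own junction was not listed.

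Hbegf, a heparin-binding ligand of Egfr and Erbb4 (chromosome 18, 36504927 to 36515805, minus strand), stood at 1.75 and 1.22 TPM, a mean of 1.49 ± 0.375 TPM (SD, n = 2). It had 163 and 81 fragments and a log2 count ratio of -0.60 (interval -1.002 to -0.21). Btc, betacellulin (chromosome 5, 91357261 to 91402994, minus strand), stood at 0.81 and 0.61 TPM on 93 and 50 fragments. Its log2 count ratio of -0.49 had an interval of -1.01 to 0.03, which includes 0. All 5 introns of each were in the junction table, with 59 reads for Hbegf and 71 for Btc.

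Ereg, epiregulin (chromosome 5, 91074622 to 91093646, plus strand), is a neighbour of Areg. It stood at 0.11 TPM in replicate 1, on 18 fragments, and had 0 fragments in replicate 2. Set against a floor of 3 fragments in replicate 2, the value in replicate 1 was 4.52-fold higher, which is not a lower bound. With the counting error of the 18 fragments included, the interval of the log2 count ratio reached up to -1.73, a smaller fold. The 0 fragments in replicate 2 allow up to 0.0253 TPM there, for counting error only. Of its 4 introns, 2 were in the junction table, with 8 reads. Areg and Ereg thus differed between the libraries in opposite directions.

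Nrg1, a neuregulin that binds Erbb3 and Erbb4 (chromosome 8, 31814551 to 32884029, minus strand), stood at 0.13 and 0.07 TPM on 11 and 4 fragments. The log2 count ratio of -1.05 had an interval of -3.16 to 0.71. The tables hold 1 Nrg1 transcript, while GENCODE M21 lists 18, so fragments that fit only the other forms had no entry to be counted in. Over all of these forms, 5 of 23 introns were in the junction table, with 16 reads, so few reads were listed for the other forms too.

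The replicate ratio moved with GC content over all genes. In 20 bins of genes by the GC content of their longest transcript, the median log2 count ratio ran from -1.03 at 39.1% to 1.16 at 61.7%. For 7 of the 9 ErbB genes with fragments in both libraries, the counting interval held the median of all genes at the same GC content. The share of all genes for which this holds is not given here. Among the 7, Erbb4, Btc, Hbegf and Nrg1 had few fragments and wide intervals. The count therefore does not measure how closely these genes follow GC content. Erbb2, at 57.3% GC, had a ratio of 0.57 against a median of 0.52 there, and Erbb3 and Tgfa were as close to theirs. The interval did not hold the median for Areg, 2.05 above it at a GC content of 48.4%, and for Egfr, 0.24 above it at 44.4%. The Egfr ratio includes the fragments assigned to Egfr-205. Over the coding transcripts of Egfr only, the log2 count ratio was -0.84 (-0.91 to -0.78), below the median of -0.66 at 44.4%.

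**Figure D5:**
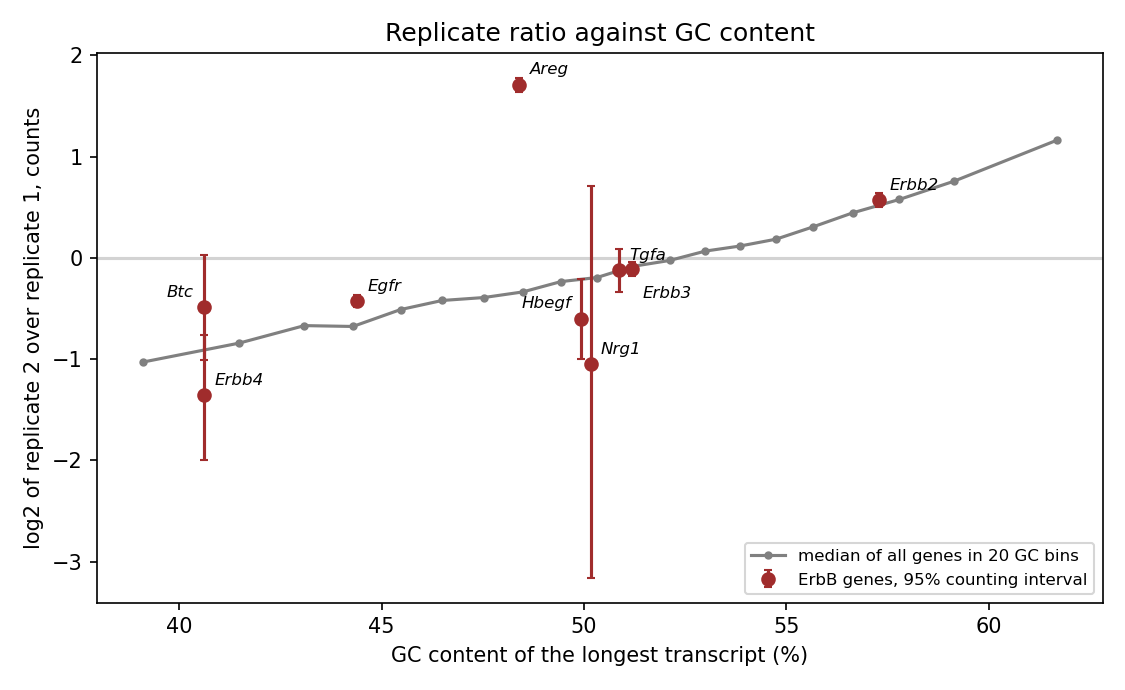
Log2 count ratio of replicate 2 over replicate 1 against the GC content of the longest transcript, for 9 ErbB genes (red, 95% counting interval) and as the median of all genes in 20 GC bins (grey). Erbb2, Erbb3 and Tgfa lie close to the grey line. Erbb4, Btc, Hbegf and Nrg1 lie off it, with intervals that reach it, and Areg lies 2.05 above it.

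The other ligand genes of the family, taken from a list set by role, held a neuregulin above most of the genes described so far. Nrg4, a neuregulin ligand of Erbb4 known from adipose tissue, stood at 78.1 and 53.5 TPM, a mean of 65.8 ± 17.4 TPM (SD, n = 2), on 3853 and 1880.0 fragments. The ligand genes of Erbb4 were thus led by Nrg4, with Erbb4 itself under 1 TPM. Nrg4 was above Areg in replicate 1, where Areg stood at 58.1 TPM. In replicate 2 Nrg4 was below Areg, which stood at 201 TPM. Nrg2 stood at 0.92 and 4.58 TPM and was beyond 2-fold higher in replicate 2, its log2 ratio by counts being 2.23 (1.92 to 2.55). Egf, the founding ligand of Egfr, stood at 3.49 and 0.29 TPM and was beyond 2-fold higher in replicate 1, at -3.65 (-4.14 to -3.20). Nrg3 had 0 fragments in both libraries.

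Genes that act on the release of the ligands, proteases and their regulators, were all expressed. All 10 were at 1 TPM or more in both replicates, against 58.3% of protein-coding genes. None was beyond 2-fold by counts, against 18.2% of all genes at a mean of 1 TPM or more. Their median log2 count ratio was -0.18. Highest were the metalloprotease gene Adam15, at 172 and 271 TPM, Rhbdf1, at 159 and 204 TPM, whose product carries Adam17 to the surface, and Timp3, an inhibitor of Adam17, at 108 and 206 TPM. For Timp3 the fragments went the other way, 16158 and 9354, with a log2 count ratio of -0.38 (-0.42 to -0.34) and an effective length of 3459 and 1475 nt.

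Downstream of the receptors, all 12 adaptor and proximal genes and all 9 genes of the Ras to ERK route were at 1 TPM or more in both. So were all 8 of the PI3K to AKT route. Of protein-coding genes, 58.3% reached that level, and 18.2% of all genes at a mean of 1 TPM or more were beyond 2-fold. The transcription factor genes Stat3, at 111 and 108 TPM, and Stat5a, at 61.3 and 100.2 TPM, were among the highest adaptor and proximal genes. The adaptor gene Shc1 was another, at 83.8 and 88.8 TPM, and none of the 12 was beyond 2-fold. Among the ERK route genes the kinase gene Map2k2 was beyond 2-fold higher in replicate 2, at 112 and 266 TPM, while Mapk3 stood at 182 and 186 TPM and Araf at 156 and 182 TPM. None of the PI3K to AKT genes was beyond 2-fold: Pik3r2 stood at 109 and 230 TPM, Akt2 at 166 and 154 TPM and Akt1 at 90.1 and 153 TPM.

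Of 17 genes that restrain the receptors, all were at 1 TPM or more in both, against 58.3% of protein-coding genes. Of these, 1 was beyond 2-fold, against 18.2% of all genes at a mean of 1 TPM or more. That gene was Ptpn1, a tyrosine phosphatase, at 41.9 and 94.6 TPM and a log2 ratio by counts of 1.09 (1.04 to 1.13). The ERK phosphatase gene Dusp6 stood at 28.7 and 43.2 TPM and Lrig1, which promotes loss of ErbB receptors from the surface, at 27.8 and 34.5 TPM.

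Several genes known as targets of ERK were higher in replicate 2. Of 12, 11 had a mean of at least 1 TPM, and 5 of these were beyond 2-fold higher in replicate 2, against 8.73% of all genes, with none higher in replicate 1. The early growth response gene Egr1 stood at 24.9 and 78.9 TPM, Myc at 19.9 and 73.9 TPM, the phosphatase genes Dusp4 at 27.5 and 66.8 TPM and Dusp5 at 3.5 and 10.2 TPM, and Phlda1 at 6.06 and 24.6 TPM. Fos, Egr2, Ier3, Etv4, Ccnd1 and Etv5 were within 2-fold. Of these, Etv5 was lower in replicate 2, at a log2 count ratio of -0.40. The median log2 count ratio of the list was 0.82, and 0.89 after the median at each gene's GC content was taken off. The genes that restrain the receptors, Dusp6 among them, were kept in their own list and are not in this count. There the median log2 count ratio was 0.14, with 1 of 17 genes beyond 2-fold and Dusp6 at 0.51 (0.44 to 0.58). The list of ERK targets was not tested against other lists, and its genes also respond to other signals. Areg stood high in replicate 2 as well, and 2 libraries allow no correlation.

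The libraries differed in what else they held, with values that bear on TPM. Skeletal muscle markers summed to 27098 TPM in replicate 1 and 12.2 TPM in replicate 2, with all 6 genes beyond 2-fold, and skin keratinocyte markers to 103 and 6.51 TPM, with Flg at 0 in both. Mitochondrial genes took 17.8% and 4.34% of TPM. With mitochondrial and muscle genes removed and TPM rescaled, Areg stood at 74.9 and 214 TPM, Erbb2 at 21.5 and 28.8, and Erbb3 at 22.2 and 17.96, so Areg remained higher in replicate 2. Of the tissue's own cell types, basal myoepithelial markers summed to 709 and 590 TPM, adipocyte markers to 18265 and 33592 TPM (of which Cfd alone 13596 and 29051 TPM, with a median log2 count ratio of -0.07 over the list), fibroblast markers to 2029 and 1412 TPM, endothelial markers to 701 and 740 TPM, macrophage markers to 884.5 and 1169 TPM and T cell markers to 212 and 351 TPM. All genes of these lists were above 1 TPM in both libraries, and their part in the levels of the ErbB genes was not tested.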

How the data were processed

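Poly(A) RNA of 2 mammary gland libraries was measured. Gene and transcript tables were made from alignments to the transcriptome (mm10, GENCODE M4), per the notes deposited beside them; neither the aligner nor the quantifier is stated in the sources used. The authors deposited expected counts (fragments), TPM, FPKM, the bounds of an interval on TPM whose level is not stated, and the percent of a gene's TPM held by each transcript (IsoPct). The authors' junction counts and contig signal came as 1 table each for the series, on mm9, and introns were matched to the junctions by length and spacing. Where the text gives a contig, it was located by its distance from the end of Egfr exon 1, since intron 1 has the same length in both builds.

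Names, coordinates and sequences came from GENCODE M21 on mm10, which named 42462 of 43346 genes; lengths of 17 of the 24 ErbB transcripts equalled those in M21, and 1 transcript was not in it. Entries named by a number (26248, all 0) and 97 spike-in entries were kept out of totals. Expected counts were rounded for ratios, which were scaled by the total and given a 95% Clopper-Pearson interval; a gene was beyond 2-fold where the whole interval was, among genes whose mean reached 1 TPM. The floor was 3 fragments per library. Intervals and floors cover counting error only. The calls and the junction matching were tested on simulated data. The simulated counts held counting error only, with no other spread between libraries, no GC trend and no split over transcripts. That test therefore does not bear on those sources of difference.

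The ErbB genes, the pathway and marker lists and the naming rule were chosen with earlier results of these data known. The rule named every ErbB gene, its transcripts with an IsoPct of at least 10, and in each pathway list the 3 highest genes, any beyond 2-fold and any at the floor. Adam10, Adam17 and the ERK target genes within 2-fold fall outside this rule where they are not among the 3 highest. They and the marker genes were named after their values were seen. The result of 1 marker list is not reported here. Nrdc of the shedding list has the older symbol Nrd1 in the names used. Tools were Python 3.11.15 (scipy 1.17.1, pandas 2.3.3, numpy 2.4.6, matplotlib 3.10.9) and R 4.3.3 with edgeR 4.0.16 (TMM) and DESeq2 1.42.0 (size factors) for other scalings only.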

Additional observations from a re-analysis of the deposited data

How the results depend on the processing

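The number of ErbB genes at or above 1 TPM in both libraries stayed within 1.5 times 6 under the 4 alternatives run. The authors' posterior mean was not among these. By it Erbb4 passed 1 TPM in both libraries, with a mean of 1.305 TPM against 0.25 TPM as used here. The count beyond 2-fold was 1 under 6 of 8 alternatives and 2 with spike-in totals, which add Erbb2, and with no filter on TPM, which adds Ereg. The summed TPM of the receptor genes, a mean of 142 TPM, fell to 52.7 TPM with coding transcripts only, an alternative chosen after the data were seen, as were GC removal and leaving out mitochondrial genes for the count beyond 2-fold. With 1 replicate left out, the receptor sum ranged from 83.3 to 201 TPM and the ligand sum from 65.2 to 211 TPM.

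Among genes whose counting interval excludes 0, the directions of log2 ratios that turned were those of Egfr, at 1.65 and 1.67 by TPM (pseudocounts 1 and 0.1), 0.34 with spike-in totals and 0.24 with GC removed; of Erbb3, at 0.0238 with DESeq2 size factors and 0.66 with spike-in totals; and of Hbegf, at 0.17 with spike-in totals. The ratios of Tgfa and Btc, whose intervals include 0, also changed sign: Tgfa to 0.80 and 0.92 by TPM (pseudocounts 1 and 0.1), 0.75 by TPM of coding transcripts, 0.64 with spike-in totals, and values under 0.01 with DESeq2 size factors and with GC removed; Btc to 0.28 with spike-in totals and 0.42 with GC removed. Against total counts, the scalings shift every log2 ratio by 0.07 (TMM), 0.13 (DESeq2), 0.76 (spike-in totals) and -0.13 (without mitochondrial genes). With fragments of coding transcripts only, the log2 ratio of Egfr stayed negative, at -0.84. Areg stayed higher in replicate 2 in each alternative run, from 1.58 to 2.47. As a share of expected counts rather than of TPM, Egfr-205 fell from a mean of 68.7% to 15.4% and Tgfa-202 from 53.0% to 6.74%. No paired analysis was possible because the labels hold 1 group. Depth limits Erbb4, Ereg and Nrg1, with 132 fragments or fewer over both libraries.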
